A study of Mus musculus with 4 samples.

Results

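The genes followed here are 33 genes of lung endothelium, the cells that line blood and lymphatic vessels, measured in RNA from sorted lung smooth muscle cells. They were listed by symbol for their known role in endothelial cells, and each was found once among the 21462 genes of the deposited table. All 33 passed the filter of a mean of at least 10 normalized counts over the 4 libraries, as did 16659 genes in all. None of the 33 passed the adjusted threshold between Tet3 mutant and control libraries.

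The RNA came from tdTomato+ smooth muscle cells of C57BL/6 mouse lungs, with 2 libraries from control mice and 2 from Tet3 mutant mice. In the mutants, floxed *Tet3* alleles were inactivated by a tamoxifen-inducible Cre under the alpha-SMA promoter (alpha-SMA-ERT2Cre), and a ROSA26 tdTomato reporter marked the cells. Per the study's methods, control mice had no floxed allele but carried Cre, tdTomato or both, tamoxifen was begun in adult animals, and mice of both sexes were used. The labels give neither age nor sex of the animals. Blood cells were removed with CD45 and Ter-119 beads, and living tdTomato+ cells were then sorted, with no step stated that removes endothelial cells from this sort. Smooth muscle actin, whose promoter drives this Cre, is also made by pericytes and myofibroblasts.

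Endothelial cells are joined by VE-cadherin and claudin-5, sense VEGF and angiopoietins through tyrosine kinase receptors, and are specified by ETS and SOX transcription factors. In the lung they form arteries, veins, lymphatics and a dense capillary bed. That bed holds general capillary cells, marked by *Aplnr*, *Gpihbp1* and *Plvap*, and aerocytes, marked by *Car4*, *Ednrb* and *Apln*. Lymphatic endothelium is marked by *Prox1*, *Flt4* and *Lyve1*.

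Promoter sequence is shown first, since ETS factors such as ERG act at short sites near endothelial genes. RefSeq promoter windows of GRCm38.p6, each running from 250 bases before to 50 bases after a start site, were at hand for 17 of the 33 genes, in 23 windows. The ETS letters AGGAAG, or CTTCCT on the other strand, were found in 10 of the 23 windows (43.5%), which belong to 9 genes, and in 35.4% of all 32851 windows. The SOX letters AACAAT or ATTGTT were in 4 of 23 (17.4%, against 10.7% of all), the GATA letters AGATAA or TTATCT in 3 of 23 (13%, against 11.2%), and the FOX letters TGTTTA or TAAACA in 2 of 23 (8.7%, against 13.4%). A match is a description of the letters and not a binding site. The 3 sequences below are the 250 bases before a start site, read 5′ to 3′ on the strand of the gene, with the ETS letters in capitals. *Apln* and *Emcn* are the genes with a single listed start that had the highest fold changes among those whose groups did not overlap. *Erg* encodes an ETS factor itself, and of its 3 listed starts only this one, which lies inside the annotated gene, had ETS letters in its window. *Apln* is on chrX:48034854-48035103 (minus strand), *Emcn* on chr3:137340828-137341077 (plus strand) and *Erg* on chr16:95459349-95459598 (minus strand).
Apln: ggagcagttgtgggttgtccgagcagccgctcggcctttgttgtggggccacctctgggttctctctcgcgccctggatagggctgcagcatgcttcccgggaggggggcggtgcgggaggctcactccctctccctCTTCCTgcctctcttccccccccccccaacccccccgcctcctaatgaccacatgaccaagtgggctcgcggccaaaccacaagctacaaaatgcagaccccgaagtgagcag
Emcn: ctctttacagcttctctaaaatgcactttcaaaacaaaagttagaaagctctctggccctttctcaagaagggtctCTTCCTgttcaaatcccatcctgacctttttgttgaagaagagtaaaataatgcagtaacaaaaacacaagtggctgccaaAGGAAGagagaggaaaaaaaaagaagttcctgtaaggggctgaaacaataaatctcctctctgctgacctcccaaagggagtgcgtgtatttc
Erg: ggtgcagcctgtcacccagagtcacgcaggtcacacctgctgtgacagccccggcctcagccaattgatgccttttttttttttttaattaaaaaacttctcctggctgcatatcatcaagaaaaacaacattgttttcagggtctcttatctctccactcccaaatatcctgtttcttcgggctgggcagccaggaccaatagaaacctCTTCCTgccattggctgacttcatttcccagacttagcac
The *Apln* match starts at position -113 from the start site, the *Emcn* matches at -174 and -93, and the *Erg* match at -40. The values of these 3 genes are given with their groups below.

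Values are normalized counts, which the authors scaled between libraries and rounded to whole numbers. Reads assigned to genes were estimated at 6.32 M to 7.56 M in each library. *Tet3* had 1847 and 1926 normalized counts in control libraries 1 and 2 and 1534 and 1444 in Tet3 mutant libraries 1 and 2, and since the count covers exons outside the deleted part it is only a partial check of the labels. Control 2 stood apart. It had 2 normalized counts of *Xist*, the RNA of the inactive X, where the other 3 libraries had 5214 to 6781. It also had 774 of the Y-linked *Ddx3y*, where the others had 0. By these counts control 2 read as male and the other 3 libraries, with both mutants among them, as female. Sex and library cannot be told apart in the control group. In control 2, 1003 genes lay more than 2-fold from all 3 other libraries, against 120 to 248 in the others. Results are therefore also given without control 2, which leaves only libraries that read as female. With 2 libraries against 2 an exact permutation test cannot go below 0.33, so genes were tested with limma across all 16659 genes. The labels do not say whether the libraries of a group come from separate animals, but the study's figure legends describe them as independent animals.

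Endothelial transcripts were abundant in these smooth muscle samples. Per kilobase of exon, *Cdh5* (VE-cadherin) averaged 532 normalized counts over the 4 libraries, *Cldn5* (claudin-5) 456 and *Pecam1* (CD31) 316, which put them above 99.5%, 99.1% and 97.0% of the genes tested. On that scale 17 of the 33 genes lay above the 90th percentile and 30 above the median gene. The lowest was *Prox1*, the transcription factor that specifies lymphatic endothelium, at 13.9 normalized counts per kilobase, above 17.6% of genes.

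For the 7 defining endothelial markers *Pecam1*, *Cdh5*, *Kdr*, *Tie1*, *Cldn5*, *Erg* and *Emcn*, the median level per kilobase was 268 and 224 normalized counts in controls 1 and 2 and 281 and 242 in mutants 1 and 2. The 10 smooth muscle markers had medians of 115 and 136 in the controls and 202 and 210 in the mutants. The median of these 7 markers was thus above the smooth muscle median in each of the 4 libraries, although the sort was for smooth muscle cells. Such medians depend on which markers are listed. Averaged over the libraries, *Acta2* (404), *Tagln* (292) and *Myh11* (275) lay above the median of 253 of the 7 endothelial markers. The other smooth muscle markers lay below it, down to *Myocd* at 24.2. Over all 33 genes the median was 200 and 170 in the controls and 201 and 204 in the mutants, above the smooth muscle median in the controls and just below it in the mutants. The median of all genes tested was 53.9. The 10 pericyte markers had a median of 105 normalized counts per kilobase. In bulk RNA, fewer cells of a type and less RNA per cell cannot be told apart.

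**Figure D1:**
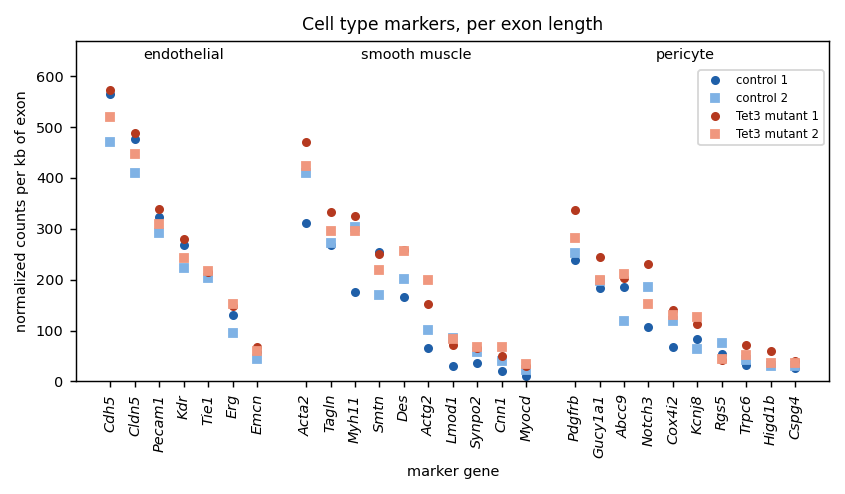
Level of single marker genes in normalized counts per kilobase of exon (vertical axis) for 7 endothelial, 10 smooth muscle and 10 pericyte markers (horizontal axis), with 1 symbol per library. *Cdh5*, at a mean of 532, stands highest, above *Acta2* in each of the 4 libraries.

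Summed over the 33 genes, the level was 35721 and 32900 normalized counts in controls 1 and 2 and 38308 and 36496 in mutants 1 and 2, or 0.510% and 0.459% against 0.556% and 0.536% of each library's total. Both mutants were above both controls in the sum. The log2 ratio of the mutant mean to the control mean was 0.12, and 0.07 without control 2. Control 1 lay closer to mutant 2 than to control 2.

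The fold changes of the genes were mostly small and above 0. The log2 fold change, mutant over control on log2(value + 1), was above 0 in 30 of the 33 genes, with a median of 0.14, where it was above 0 in 49.0% of all genes tested, with a median of -0.01. Without control 2 it was above 0 in 22 of the 33, with a median of 0.05, against 47.4% of all genes and a median of -0.01. None of the 33 had a limma adjusted p under 0.05, and neither did any of the 16659 genes tested (0%). The smallest adjusted p was 0.681 among the 33 and 0.0902 among all genes. At an unadjusted limma p under 0.05, 1 of the 33 was higher in the mutants (3.03%, against 3.83% of all genes) and 0 were lower (against 2.85%). Both mutant libraries lay above both controls in 15 of the 33 (45.5%, against 19.6% of all genes) and below both in 0 (against 19.5%). Leaving out control 1 gave 10 of the 33 at an unadjusted limma p under 0.05 (30.3%, against 20.2% of all genes) and leaving out control 2 gave 1 (3.03%, against 5.45%). Both mutants lay above control 1 alone in 16 of the 33 (48.5%, against 32.4% of all genes).

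**Figure D2:**
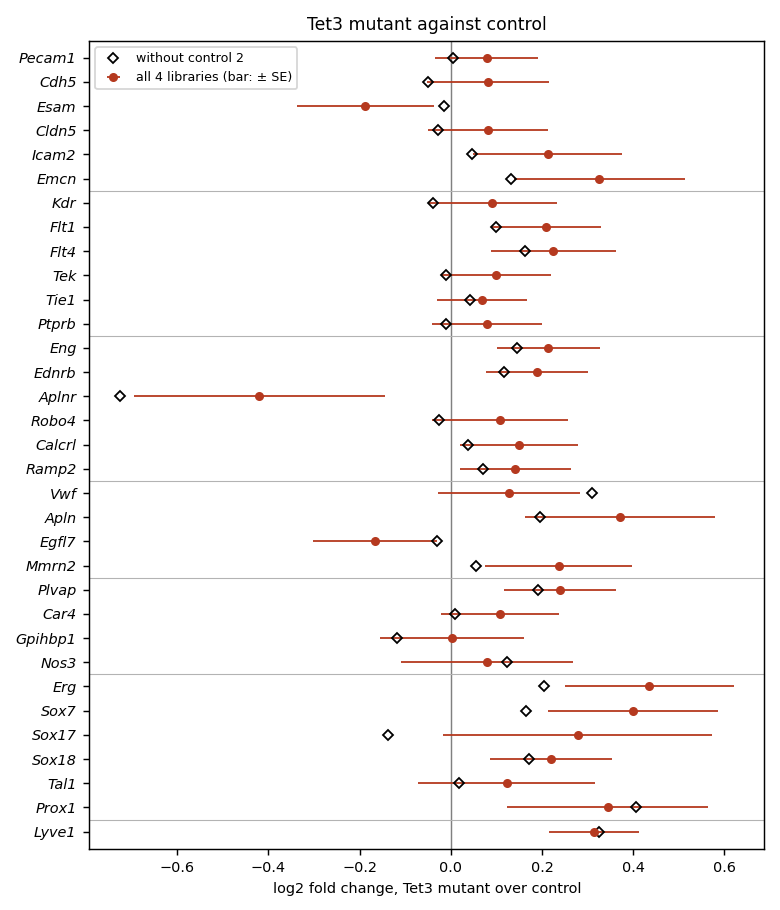
Log2 fold change of each of the 33 genes, Tet3 mutant over control (horizontal axis), grouped by role (grey lines). Filled circles use all 4 libraries with bars of ± 1 SE from limma, and open diamonds leave out control 2. Of the circles, 30 lie above 0, and of the diamonds, 22.

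The pattern among libraries was shared by most of the genes. Control 2 was the lowest of the 4 libraries in 26 of the 33 (78.8%, against 33.1% of all genes) and mutant 1 the highest in 20 (60.6%, against 20.7%). Relative to each gene's mean over the 4 libraries, the median log2 deviation was 0.03 in control 1, -0.17 in control 2, 0.11 in mutant 1 and 0.03 in mutant 2, where it was within 0.01 of 0 in each library for all genes. In this median control 1 and mutant 2 were thus alike, and control 2 and mutant 1 lay on either side of them. In single genes control 1 and mutant 2 could differ, as in *Aplnr* (0.52 and 0.02) and *Lyve1* (-0.17 and 0.15). GC content was followed as well, since values in these libraries moved with it. In control 2 the median deviation of the 33 genes was below that of all genes in each of 5 bins of transcript GC content. In the bin of highest GC content, which held 13 of the 33, it was -0.16 against 0.08. The bins of lowest GC content held only 2 and 3 of the 33. The part of GC content in the values of the 33 genes was not tested.

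**Figure D3:**
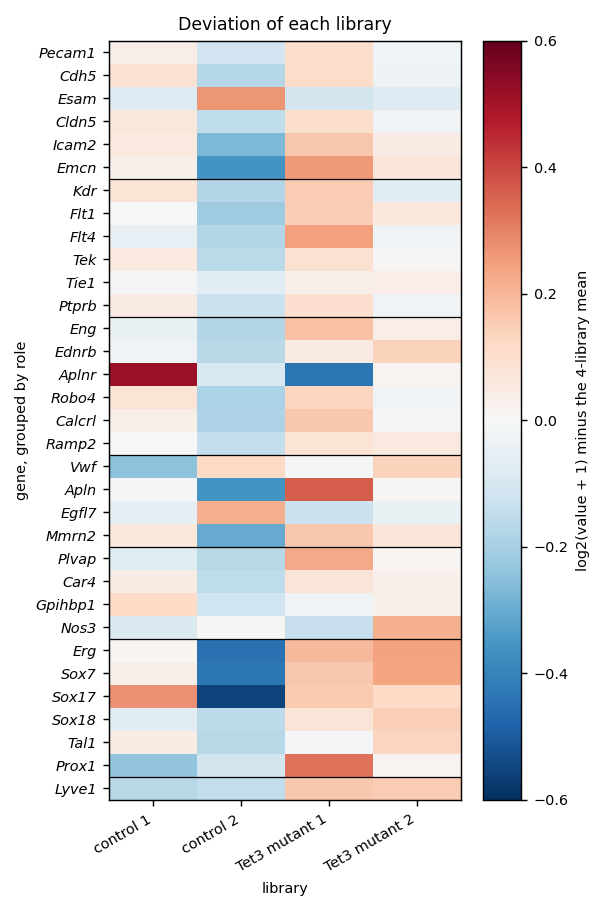
Deviation of each library from the gene's mean over the 4 libraries on log2(value + 1) (colour, red above and blue below the mean) for the 33 genes (vertical axis, grouped by role) in the 4 libraries (horizontal axis). The column of control 2 is blue for most genes, with a median of -0.17, and red for *Esam* and *Egfl7*.

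Among the 6 adhesion and junction genes the median log2 fold change was 0.08, and -0.01 without control 2. *Pecam1* (chromosome 11, 106654217 to 106750628) had 2010 and 1815 normalized counts in the controls and 2113 and 1926 in the mutants. *Cdh5* had 2377 and 1978 in the controls and 2407 and 2187 in the mutants. *Cldn5*, the tight junction protein of endothelium, had 675 and 580 in the controls and 692 and 634 in the mutants. In these 3 genes control 1 lay between the mutants and only control 2 lay below them. *Icam2*, a ligand of leukocyte integrins, had 381 and 303 normalized counts in the controls and 409 and 379 in the mutants. The groups did not overlap for *Emcn* (endomucin, a sialomucin of capillary and venous endothelium), at 312 and 238 in the controls and 364 and 321 in the mutants, a log2 fold change of 0.33 (SE 0.19, limma p 0.141). *Esam*, an adhesion molecule of endothelial tight junctions, went the other way, with 616 and 782 in the controls and 602 and 617 in the mutants (log2 fold change -0.19, SE 0.15). Control 2 was its highest library, and the other 3 lay close together.

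For the VEGF and angiopoietin receptors and their phosphatase, all 6 fold changes were above 0, with a median of 0.10, and control 2 was the lowest library in each. Without control 2 the median was 0.02. *Kdr* (VEGFR2, the main signalling receptor for VEGF-A) had 2417 and 2019 normalized counts in the controls and 2536 and 2184 in the mutants. *Flt1* (VEGFR1, which binds VEGF-A and placental growth factor) had 1937 and 1665 in the controls and 2137 and 2017 in the mutants, and *Flt4* (VEGFR3, the VEGF-C receptor) 761 and 698 in the controls and 934 and 777 in the mutants. The mutants did not overlap the controls for *Flt1* (log2 fold change 0.21, SE 0.12, limma p 0.139) and *Flt4* (0.22, SE 0.14, limma p 0.160), but did for *Kdr* (0.09, SE 0.14). *Tek* (TIE2, the angiopoietin receptor) had 1691 and 1452 in the controls and 1730 and 1629 in the mutants. Its partner *Tie1* had 1034 and 996 in the controls and 1061 and 1067 in the mutants, without overlap and with a log2 fold change of 0.07 (SE 0.10). *Ptprb* (VE-PTP, the phosphatase that acts on TIE2) had the highest values of the 33 genes, 5851 and 5158 in the controls and 6049 and 5572 in the mutants, and its groups overlapped.

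Of the 6 other receptors, 5 had fold changes above 0, with a median of 0.15, and 0.05 without control 2. The groups did not overlap for *Eng* (endoglin, a co-receptor for BMP9 and TGF-beta), at 1351 and 1229 normalized counts in the controls and 1566 and 1426 in the mutants (log2 fold change 0.21, SE 0.11, limma p 0.115). *Ednrb* (endothelin receptor type B) had 919 and 831 in the controls and 967 and 1027 in the mutants (0.19, SE 0.11), again without overlap. The adrenomedullin receptor is made of *Calcrl*, at 2431 and 2081 in the controls and 2646 and 2353 in the mutants, and *Ramp2*, at 470 and 426 in the controls and 498 and 489 in the mutants. The groups overlapped for *Calcrl* and did not for *Ramp2*, of whose exon bases 33.4% are shared with *Vps25*. *Robo4*, an endothelial receptor of the roundabout family, had 499 and 414 in the controls and 516 and 465 in the mutants.

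*Aplnr*, the apelin receptor (chromosome 2, 85136225 to 85139923), had the lowest fold change of the 33, and its libraries differed widely within groups. It had 378 and 247 normalized counts in the controls and 195 and 267 in the mutants, a log2 fold change of -0.42 (SE 0.28, limma p 0.187, adjusted p 0.712). Mutant 2 lay above control 2, so the groups overlapped. Without control 2 the log2 fold change was -0.73, and without control 1, its highest library, it was -0.11. Its ligand *Apln* (chromosome X, 48025146 to 48034853), whose promoter is printed above, had 264 and 207 in the controls and 343 and 267 in the mutants (log2 fold change 0.37, SE 0.21, limma p 0.134). Mutant 2 and control 1 were nearly equal, and without control 2 the log2 fold change was 0.20. For ligand and receptor, the fold changes thus had opposite signs, and neither passed the test.

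The other secreted proteins differed in their order. *Vwf* (von Willebrand factor, a clotting protein stored by endothelium and by platelets) had 3429 and 4412 normalized counts in the controls and 4041 and 4465 in the mutants, and control 1 was the lowest library. Its log2 fold change was 0.13 (SE 0.16) over all libraries, 0.31 without control 2 and -0.06 without control 1. The 7 platelet and megakaryocyte genes of the table, of which 4 were tested, summed to 654 and 463 in the controls and 445 and 879 in the mutants. In this sum mutant 2 was the highest library, and mutant 1 the lowest with control 2 close to it. Of the 4 tested genes, mutant 2 was the highest in 4, and control 2 was the lowest in 3 and mutant 1 in 1. For *Vwf* mutant 2 was the highest and control 1 the lowest. The part of platelets in the *Vwf* values was not tested. *Egfl7*, a secreted endothelial protein whose gene holds miR-126, had 722 and 872 in the controls and 685 and 729 in the mutants (log2 fold change -0.17, SE 0.14), and 11.2% of its exon bases are shared with other genes. As in *Esam*, control 2 was the highest. *Mmrn2*, a matrix protein of vessels, had 550 and 427 in the controls and 589 and 554 in the mutants, with nearly no gap between control 1 and mutant 2 (0.24, SE 0.16, and 0.05 without control 2).

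Capillary genes gave a median log2 fold change of 0.09 over 4 genes. The groups did not overlap for *Plvap*, a protein of endothelial diaphragms, at 962 and 899 normalized counts in the controls and 1183 and 1019 in the mutants (log2 fold change 0.24, SE 0.12, limma p 0.108). *Car4* (carbonic anhydrase 4 of the capillary surface) had 495 and 431 in the controls and 506 and 490 in the mutants. *Gpihbp1*, which carries lipoprotein lipase to the capillary wall, had 282 and 239 in the controls and 255 and 265 in the mutants, a log2 fold change of 0.00 (SE 0.16). *Nos3* (endothelial nitric oxide synthase) had 198 and 211 in the controls and 191 and 244 in the mutants. The groups overlapped for *Car4*, *Gpihbp1* and *Nos3*, and 32.3% of the exon bases of *Nos3* are shared with genes on the other strand. Relative to the sum of the 7 defining markers, the aerocyte genes *Car4*, *Ednrb* and *Apln* came to 0.181 and 0.185 in the controls and 0.187 and 0.202 in the mutants. On the same scale the general capillary genes *Aplnr*, *Gpihbp1* and *Plvap* came to 0.175 and 0.174 in the controls and 0.169 and 0.175 in the mutants. In the aerocyte ratio both mutants lay above the controls, in the general capillary ratio they did not, and neither was tested. The distance from control 2 to mutant 1 in the aerocyte ratio was smaller than the distance between the controls.

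The 6 transcription factors had the highest median of the roles with more than 1 gene, 0.31, and 0.17 without control 2. *Erg* (chromosome 16, 95359169 to 95586593) had 452 and 328 normalized counts in the controls and 513 and 529 in the mutants, with means of 390 ± 87.7 and 521 ± 11.3 (SD, n = 2). Its log2 fold change of 0.44 (SE 0.19) was the highest of the 33, with a limma p of 0.0648 and an adjusted p of 0.681. *Sox7* had 500 and 361 in the controls and 546 and 575 in the mutants (log2 fold change 0.40, SE 0.19, limma p 0.0847). Both genes showed a control 2 far below the other 3 libraries, and without it the fold changes were 0.20 and 0.16. *Sox17*, of the same SOXF family, had 319 and 179 in the controls and 294 and 286 in the mutants (0.28, SE 0.29), and 16.8% of its exon bases are shared with another gene. Here control 1 was the highest library, and without control 2 the log2 fold change was -0.14. *Sox18* had 295 and 276 in the controls and 325 and 340 in the mutants (0.22, SE 0.13, and 0.17 without control 2). *Tal1*, a factor of blood and endothelial development, had 147 and 127 in the controls and 142 and 156 in the mutants. The groups did not overlap for *Erg*, *Sox7*, *Sox18* and *Prox1*, and did for *Sox17* and *Tal1*.

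**Figure D4:**
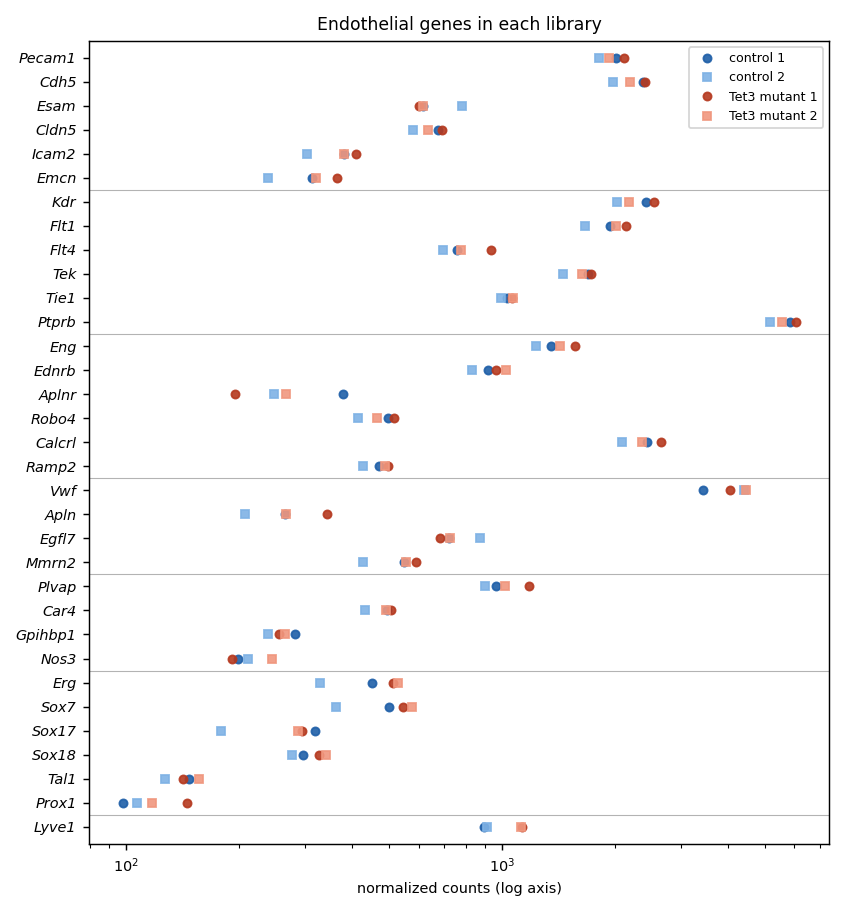
Normalized counts (horizontal log axis) of the 33 endothelial genes (vertical axis, grouped by role) in the 2 control (blue) and 2 Tet3 mutant (red) libraries. Control 2 is the leftmost symbol in 26 of the 33, and the 2 mutant symbols of *Lyve1* lie apart from its 2 control symbols.

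For the lymphatic markers *Lyve1*, *Prox1* and *Flt4*, both controls lay below both mutants. Control 1 was the lowest library for *Lyve1* and *Prox1* and control 2 for *Flt4*, and over the lymphatic list of 9 genes control 2 was the lowest in 5. *Lyve1*, a hyaluronan receptor of lymphatic endothelium (chromosome 7, 110850607 to 110863239), had 898 and 912 normalized counts in the controls and 1128 and 1123 in the mutants. The means were 905 ± 9.90 and 1126 ± 3.54 (SD, n = 2), a log2 fold change of 0.31 (SE 0.10) and the smallest p of the 33, with a limma p of 0.0233 and an adjusted p of 0.681. The log2 fold change was 0.33 without control 2 and 0.30 without control 1. *Prox1* had 98 and 107 in the controls and 145 and 117 in the mutants (0.34, SE 0.22, limma p 0.179), and 0.41 without control 2. *Lyve1* is also made by some tissue macrophages. The 12 leukocyte genes followed summed to 7864 and 6522 in the controls and 8911 and 8853 in the mutants, with a range of 6522 to 7864 against 8853 to 8911 and none at 0 in any library, and their part in the *Lyve1* values was not tested.

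Of the lymphatic list of 9 genes, which holds *Lyve1*, *Prox1* and *Flt4*, 8 had fold changes above 0, with a median of 0.34, and 0.29 without control 2. The groups did not overlap, with the mutants higher, for 7 of the 9 (against 19.6% of all genes), and 3 of the 9 had an unadjusted limma p under 0.05 (against 3.83%). This was not particular to the lymphatic list. The groups were apart in that direction for 8 of 10 pericyte, 7 of 10 smooth muscle and 8 of 12 leukocyte markers. It was so for only 2 of 10 fibroblast and 0 of 10 alveolar type 2 markers. *Mmrn1*, a protein of lymphatic endothelium and platelets, had 591 and 674 normalized counts in the controls and 821 and 872 in the mutants (log2 fold change 0.42, SE 0.12, limma p 0.0173). *Pdpn* (podoplanin, also made by alveolar type 1 cells and fibroblasts) had 339 and 245 in the controls and 426 and 404 in the mutants (0.52, SE 0.19, limma p 0.0417). *Ccl21a*, a chemokine of lymphatic endothelium, had 106 and 94 in the controls and 148 and 137 in the mutants (0.51, SE 0.20, limma p 0.0530). The mutants were the higher group in each of these 3 genes. Of the others, the surface protein *Thy1* had 198 and 126 in the controls and 213 and 236 in the mutants, and *Reln* had 389 and 512 in the controls and 531 and 416 in the mutants. *Nrp2*, the most abundant gene of the list, had 2870 and 2000 in the controls and 2296 and 2424 in the mutants. Thus 1 of the 9 had a fold change below 0, *Nrp2*, at -0.02. Relative to the 7 defining endothelial markers, *Lyve1*, *Prox1* and *Flt4* together came to 0.189 and 0.216 in the controls and 0.228 in both mutants. *Mmrn1* and *Ccl21a* together came to 0.0751 and 0.0966 in the controls and 0.10 and 0.11 in the mutants. Neither of these ratios was tested, and the distance from control 2 to the nearest mutant was smaller than the distance between the controls in both.

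Other genes of endothelium were followed in lists that share no gene with the 33, apart from the capillary and lymphatic lists. Of 20 further pan-endothelial genes, 18 had fold changes above 0, with a median of 0.18. Without control 2, 13 of the 20 were above 0, with a median of 0.01. With all libraries, 1 of the 20 was higher in the mutants at an unadjusted limma p under 0.05 (against 3.83% of all genes). That 1 gene was *Tm4sf1*, with 625 and 549 normalized counts in the controls and 776 and 747 in the mutants (log2 fold change 0.38, SE 0.12, limma p 0.0255). The most abundant of them, the orphan receptor *Adgrf5*, had 5079 and 5590 in the controls and 5019 and 4670 in the mutants. These 20 genes had control 2 as the lowest library in 14 (70%, against 33.1% of all genes), as was so for most of the 33.

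Among 17 tested partners of the VEGF, angiopoietin, apelin, endothelin and guidance receptors, 12 had fold changes above 0, with a median of 0.17, and 3 had an unadjusted limma p under 0.05 (against 3.83% of all genes), all higher in the mutants. Without control 2, 9 of the 17 were above 0, with a median of 0.03. *Unc5b*, a netrin receptor that binds ROBO4, had 224 and 228 normalized counts in the controls and 328 and 326 in the mutants (log2 fold change 0.53, SE 0.14, limma p 0.0110). *Pgf* (placental growth factor, a ligand of FLT1) had 61 and 74 in the controls and 124 and 115 in the mutants (0.82, SE 0.24, limma p 0.0173). *Edn1* (endothelin-1, a ligand of EDNRB) had 180 and 110 in the controls and 246 and 236 in the mutants (0.77, SE 0.27, limma p 0.0363, and 0.42 without control 2). For *Unc5b* and *Pgf* the controls lay closer to each other than to either mutant, and the adjusted p of all 3 was 0.681. *Slit2*, the most abundant of the list, had 3404 and 1792 in the controls and 2711 and 2837 in the mutants.

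Genes of BMP and TGF-beta signalling in endothelium were above 0 in 7 of 10, with a median of 0.06 and none at an unadjusted limma p under 0.05. Without control 2 the direction turned, with 4 of 10 above 0 and a median of -0.04. *Bmpr2*, the BMP type II receptor and the most abundant of them, had 5058 and 4273 normalized counts in the controls and 5100 and 4624 in the mutants. Of 16 further endothelial transcription factors, 10 were above 0 (8 without control 2), and 1 had an unadjusted limma p under 0.05 (against 2.85% of all genes lower in the mutants). This was *Klf2*, a factor induced by blood flow, with 647 and 703 in the controls and 474 and 550 in the mutants (log2 fold change -0.40, SE 0.13, limma p 0.0282, and -0.34 without control 2). *Klf2* thus lay lower in both mutants, while the 6 factors among the 33 had fold changes above 0. Arterial and Notch genes were above 0 in 10 of 13, with a median of 0.17, and in 7 of 13, with a median of 0.05, without control 2. Venous genes were above 0 in 4 of 7 tested, with a median of 0.09, and the median was -0.05 without control 2 and -0.04 without control 1. The general capillary list, which has 4 of its 12 genes among the 33, was above 0 in 8 with a median of 0.13, and in 4 with a median of -0.04 without control 2. The aerocyte list, with 5 of its 12 genes among the 33, was above 0 in 9 with a median of 0.13, and in 6 with a median of -0.01 without control 2. In both capillary lists the sign of the median thus depended on control 2. In the venous list the sign also turned without control 1, and without mutant 2 the median was -0.07. With all 4 libraries, none of these 4 vessel lists had a gene at an unadjusted limma p under 0.05.

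Markers of other lung cells were followed as well. The 10 smooth muscle markers summed to 5108 and 6747 normalized counts in the controls and 7952 and 7612 in the mutants, with all 10 fold changes above 0 and 4 of them (*Actg2*, *Des*, *Cnn1* and *Myocd*) at an unadjusted limma p under 0.05 (against 3.83% of all genes). Control 1 was the lowest library in 9 of these 10. Their median log2 fold change was 0.52 with all libraries, 0.85 without control 2 and 0.29 without control 1. The sum of the 33 endothelial genes was 6.99 and 4.88 times the smooth muscle sum in the controls and 4.82 and 4.79 times in the mutants. These sums cover 33 and 10 genes and were not scaled by gene number or exon length. The ratios thus compare libraries and do not give the relative amounts of RNA of the 2 cell types. Control 1 was thus the library with the most endothelial relative to smooth muscle RNA, and control 2 lay close to the mutants. Pericyte markers summed to 6013 and 6433 in the controls and 8600 and 7294 in the mutants, and fibroblast markers to 31308 and 27349 against 32812 and 29144. Alveolar type 2 markers summed to 17014 and 25448 in the controls and 12254 and 15344 in the mutants, with 0 of 10 fold changes above 0, and alveolar type 1 markers to 6982 and 8499 against 6198 and 6669. Control 2, the library lowest in the endothelial genes, was the highest in both alveolar lists. Airway epithelial markers summed to 3777 and 2977 against 4427 and 4195, mesothelial markers to 829 and 500 against 452 and 621, and erythroid markers to 333 and 5 against 17 and 30. Genes of dissociation stress summed to 8785 and 10988 in the controls and 9280 and 6741 in the mutants, and Y chromosome genes to 0 and 2252 against 0 and 3. At an unadjusted limma p under 0.05 stood *Kcnj8*, *Trpc6*, *Cspg4* and *Pdgfrb* (pericyte), *Lum* (fibroblast), *Foxj1*, *Tekt1* and *Dnah5* (airway) and *Fcer1g* and *Csf1r* (leukocyte), all higher in the mutants. Lower in the mutants at that p were *Rgs5* (pericyte), *Etv5*, *Slc34a2*, *Abca3* and *Lamp3* (alveolar type 2), *Wt1* (mesothelial) and *Fosb* (dissociation stress). None of these had an adjusted p under 0.05. Control 2 was the highest library in all 10 alveolar type 2 markers. Their median log2 fold change was -0.60 with all libraries and -0.32 without control 2. *Wt1* had 23 and 14 normalized counts in the controls and 5 and 4 in the mutants, near the filter of a mean of 10. The most abundant gene was *Myh11* of the smooth muscle list, *Pdgfrb* of the pericyte, *Fn1* of the fibroblast, *Abca3* of the alveolar type 2, *Emp2* of the alveolar type 1, *Dnah5* of the airway, *Krt19* of the mesothelial, *Hbb-bs* of the erythroid, *Jun* of the stress, *Ptprc* of the leukocyte and *Itgb3* of the platelet list. The part of these cell types in the values of the 33 genes was not tested.

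**Figure D5:**
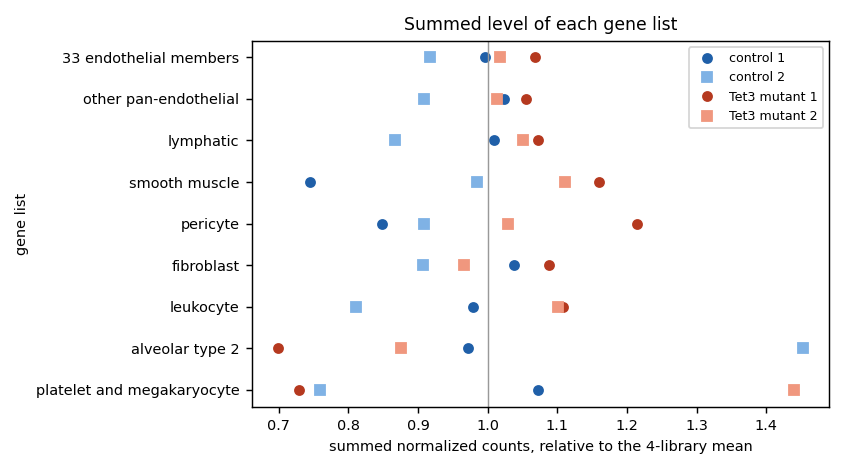
Summed normalized counts of the 33 endothelial genes and of 8 marker lists (vertical axis), each relative to its mean over the 4 libraries (horizontal axis, 1.0 is the mean), with 1 symbol per library. The 33 genes, at sums of 32900 to 38308, have control 2 lowest and mutant 1 highest, and control 2 lies highest for alveolar type 2 markers.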

How the data were processed

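RNA of sorted mouse lung smooth muscle cells was measured in 2 control and 2 Tet3 mutant libraries, grouped by the genotype and replicate number in their labels. Per the study's methods and the submitters' processing notes, ribosomal RNA was depleted, stranded total RNA libraries were sequenced, reads were trimmed with Trimmomatic 0.36, checked with FastQC, aligned with STAR 2.6.0c to mm10 (GRCm38) and assigned to exons by featureCounts (Subread 1.6.0). Whether strand was used in counting is not given in the sources used here. DESeq2 was used by the authors for scaling, and what they deposited is treated as a score (scaled gene counts rounded to whole numbers), so no count model was run. Deposited totals were 6805272 to 7164573. Reads per library were estimated from the pattern of low values that scaling and rounding leaves. Depth limits counting error only, because without molecular identifiers several reads can stem from 1 molecule.

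Genes were compared on log2(value + 1) where they had a mean of at least 10, with limma 3.58.1 in R 4.3.3 (lmFit, eBayes with a mean-variance trend) and Benjamini-Hochberg adjustment over 16659 genes at 0.05. The scale understates differences of low genes. Errors are moderated standard errors. The script was tested on simulated data. Exon length, GC content and exon overlap were from GENCODE on the same build, where all 33 genes had the coordinates of the table. Promoter windows were from RefSeq (GRCm38.p6), and the 16 genes without one were *Pecam1*, *Cdh5*, *Esam*, *Icam2*, *Ptprb*, *Aplnr*, *Ramp2*, *Vwf*, *Mmrn2*, *Plvap*, *Gpihbp1*, *Nos3*, *Sox7*, *Sox17*, *Sox18* and *Lyve1*.

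The 33 genes and all lists were chosen with earlier results of these data known. Named were all 33, of each list the genes at an unadjusted p under 0.05 and the most abundant gene of each list of another cell type, and *Tet3*, *Xist* and *Ddx3y*. The remaining lymphatic genes and the most abundant genes of endothelial lists were named after their values were seen. Alternatives were a pseudocount of 0.5 or 8, a minimum mean of 1 or 50, TMM factors, equal totals, no trend, the sum without *Ptprb*, the replicate number as a block and each library left out.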

Additional observations from a re-analysis of the deposited data

How the results depend on the processing

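No gene of the 33 reached an adjusted p under 0.05 in any setting. The smallest adjusted p among the 33 over all settings was 0.204. Over all genes the count called was 0 in each setting except without the mean-variance trend, where 1 gene was called (adjusted p 0.031), and there 0 of the 33 had an unadjusted p under 0.05 instead of 1. Leaving out each library in turn gave 0 to 10 of the 33 at that p. The 10 came without control 1, where 20.2% of all genes had such a p, and 8 of them were higher in the mutants. Without control 2 there was 1 (5.45% of all genes). A left-out library leaves 1 sample in its group, which is assumed to vary like the other group. The median log2 fold change was 0.139 to 0.189 over the settings that kept all libraries and 0.047 to 0.242 when a library was left out, lowest without control 2. The log2 ratio of the summed level was 0.124, with 0.124 to 0.172 and 0.066 to 0.185 in the same way.

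Of the 33 genes, 23 kept their direction in every setting and 10 reversed it when a library was left out, with none reversed in any other setting. When each library was left out in turn, the log2 fold change was -0.055 to 0.309 for *Vwf*, -0.051 to 0.214 for *Cdh5*, -0.027 to 0.191 for *Cldn5*, -0.038 to 0.221 for *Kdr*, -0.01 to 0.209 for *Tek*, -0.011 to 0.171 for *Ptprb*, -0.027 to 0.242 for *Robo4*, -0.117 to 0.121 for *Gpihbp1*, -0.137 to 0.693 for *Sox17* and -0.097 to 0.254 for *Nos3*. The cause was not tested.

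Control and mutant libraries share replicate numbers, which the labels do not tie to a litter, batch or day. The deviations of same-numbered libraries from their group means correlated at 0.134 (Pearson) and 0.123 (Spearman) across 16659 genes, which are not independent replicates, and with only 2 pairs this does not show that the numbers pair the libraries. A fit with the replicate block called 0 genes, 1 of the 33 had an unadjusted p under 0.05, and the median log2 fold change was 0.141.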
